A study of Bos indicus x Bos taurus with 45 samples.

Results

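The miRNAs described here are those best known from neurons and sensory organs, followed in 4 non-neural tissues of bovine fetuses. They are every table entry named miR-182, miR-183, miR-96, miR-7, miR-9, miR-124a, miR-124b, miR-128, miR-138 or miR-219, whichever arm of the hairpin precursor it came from. This gave 12 distinct names of the 603 listed in any of the 4 tissue tables. Tongue listed 10 of them among 460 miRNAs, liver 9 of 563, kidney 6 of 436 and skeletal muscle 6 of 439. bta-miR-182, bta-miR-183, bta-miR-128, bta-miR-9 and bta-miR-138 were listed in all 4 tissues, among 374 miRNAs shared by the tables.

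Small RNA sequencing had been done on tissues of Bos indicus x Bos taurus fetuses at about day 105 of gestation. LOS fetuses were conceived by assisted reproductive technologies (ART) and had large offspring syndrome, in which ruminant fetuses overgrow. The ART group, present in liver alone, was conceived the same way and is labelled healthy. Control fetuses were conceived by artificial insemination and are also labelled healthy. LOS and control libraries numbered 7 and 9 in tongue, 4 and 4 in kidney, 4 and 5 in liver and 4 and 4 in muscle, with 4 ART libraries in liver. Sex is given for tongue only. LOS fetuses differ from controls in conception method as well as in phenotype, so these cannot be told apart in kidney, muscle and tongue. Breed, dam and processing day of each fetus are not given in the labels, so p-values reflect only the spread between these labelled fetuses.

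miRNAs are short RNAs that pair through a seed near their 5′ end with messenger RNAs and reduce their translation or stability. miR-183, miR-96 and miR-182 come from 1 genomic cluster in vertebrates that is known for its high level in hair cells, photoreceptors, olfactory and taste cells and other sensory cells, and that many epithelia also express. miR-124 and miR-9 are classical miRNAs of neurons and neural progenitors, miR-138 and miR-128 are abundant in brain, miR-219 is known from oligodendrocytes, and miR-7 is known from neurons and endocrine cells. miR-128 is also made in skeletal muscle. In bulk tissue, fewer cells of a type and less of a miRNA per cell cannot be told apart.

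Listed reads per library ran from 9357833 to 13822348 in tongue, 6132982 to 9170756 in kidney, 3379816 to 4976770 in liver and 4744968 to 6456252 in muscle. Levels are CPM, the counts scaled to a common total of listed reads. CPM of different miRNAs in 1 library can also differ through ligation and amplification of each sequence, so levels are compared mainly between libraries. The labelled tissues held their marker miRNAs. Summed hepatocyte miRNAs (miR-122 and miR-885) were 15400 to 20822 CPM in liver and at most 29.6 CPM in kidney and muscle, and were not listed in tongue. Summed skeletal muscle miRNAs (miR-1, miR-133, miR-206 and miR-499) were at least 16099 CPM in tongue and 17306 CPM in muscle, and at most 208.5 CPM in liver and 87.6 CPM in kidney. Summed kidney and gut miRNAs (miR-192, miR-194 and miR-215) in tongue were 1553 to 2009 CPM in LOS, against 1640 to 2604 CPM in 8 controls and 8136 CPM in control 9, and their part in the tongue results was not tested. 2 libraries stood apart for several members. Tongue control 1 had the highest level among the tongue controls for 8 of 10 members, and muscle control 2 had the highest muscle level of bta-miR-182, bta-miR-183, bta-miR-9 and bta-miR-138. The member values they move most are also given without them.

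The shared members differed more between tissues than between groups of a tissue. bta-miR-182 was the most abundant member in tongue and kidney, at 1823 ± 561 CPM in tongue (SD, n = 16) and 1160 ± 130 CPM in kidney (n = 8). It stood at 244 ± 52.6 CPM in liver (n = 13) and 57.6 ± 54.5 CPM in muscle (n = 8). Among the listed miRNAs it ranked 66 of 460 in tongue, 67 of 436 in kidney, 184 of 563 in liver and 236 of 439 in muscle. Its cluster partner bta-miR-183 followed the same order, at 255 ± 76.3 CPM in tongue, 169 ± 23.1 CPM in kidney, 29.5 ± 5.90 CPM in liver and 10.8 ± 13.5 CPM in muscle. Without control 2 the other 7 muscle libraries averaged 39.0 ± 15.1 CPM of bta-miR-182 and 6.17 ± 2.63 CPM of bta-miR-183. Without control 1 the other 15 tongue libraries averaged 1718 ± 387 and 239.6 ± 45.2 CPM.

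**Figure D1:**
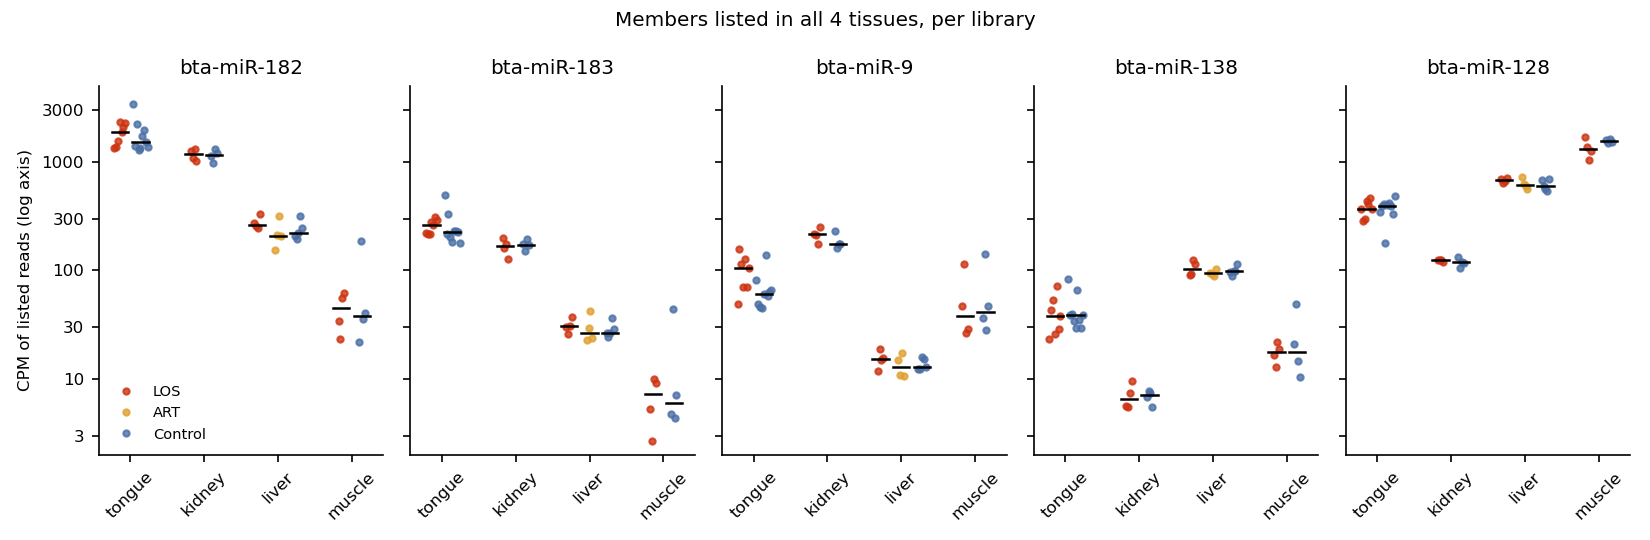
CPM of listed reads (log axis) of the 5 members listed in all 4 tissues, 1 point per library, with LOS left of ART and control in each tissue and a black line at each group's median. bta-miR-182 and bta-miR-183 were highest in tongue and kidney, bta-miR-9 in kidney, bta-miR-138 in liver and bta-miR-128 in muscle, while the groups within a tissue overlapped.

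The tissues were compared in the controls numbered 1 to 4, which every tissue has. The labels do not say that equal numbers in different tissues are 1 fetus, so the 16 libraries entered the test as separate samples, and leaving out a control number removed its library from all 4 tissues. The quasi-likelihood test of edgeR was used, and p was adjusted after Benjamini and Hochberg over the 374 shared miRNAs. Each difference is given in log2 units ± an approximate standard error (SE), and a call is an adjusted p under 0.05. The SE was taken as the size of the difference divided by the square root of the test's F statistic. Most shared miRNAs differed between any 2 tissues, so a call alone says little about a member. For tongue over liver, 85% of shared miRNAs were called and 4 of 5 members were. The other pairs had 79.7% called and 3 of 5 members for tongue over kidney, 65% and 3 of 5 for tongue over muscle, 86.4% and 5 of 5 for kidney over liver, 76.7% and 5 of 5 for kidney over muscle, and 85.6% and 3 of 5 for muscle over liver. Plain totals in place of TMM factors moved the median of the shared miRNAs by -0.83 for kidney minus liver, the largest shift, and by 0.44 for tongue minus kidney, and no called member changed direction under any scaling tried.

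bta-miR-182 in controls 1 to 4 averaged 2084 ± 974 CPM in tongue, 1150 ± 143 CPM in kidney, 235 ± 54.6 CPM in liver and 71.4 ± 78.1 CPM in muscle (SD, n = 4 each). Without control 2 the muscle mean was 32.6 ± 9.46 CPM (n = 3). The fitted difference was 3.50 ± 0.52 for tongue minus liver (edgeR adjusted p = 9.33e-06) and 4.50 ± 0.55 for tongue minus muscle (adjusted p = 2.52e-06). Kidney exceeded liver by 3.099 ± 0.52 (adjusted p = 2.92e-05) and muscle by 4.11 ± 0.54 (adjusted p = 3.29e-06). Without control 2 the differences from muscle were larger, 5.73 for tongue and 5.32 for kidney, and without control 1 tongue minus muscle was 3.90. Tongue and kidney, the neighbours at the top of the order, did not differ beyond their spread, with 0.40 ± 0.47 (adjusted p = 0.46). Muscle minus liver was -1.01 ± 0.49 (adjusted p = 0.068), and it passed without control 2 (-2.21, adjusted p = 3.38e-05) and with plain totals as the scale (-1.75, adjusted p = 0.00434).

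bta-miR-183 gave the same picture from an entry counted separately. Tongue exceeded liver by 3.80 ± 0.55 (adjusted p = 6.10e-06) and muscle by 4.01 ± 0.56 (adjusted p = 1.05e-05), and kidney exceeded liver by 3.42 ± 0.54 (adjusted p = 1.78e-05) and muscle by 3.63 ± 0.55 (adjusted p = 1.62e-05). Without control 2 tongue minus muscle was 5.55 and kidney minus muscle 5.15, and without control 1 tongue minus muscle was 3.44. Tongue minus kidney was 0.39 ± 0.48 (adjusted p = 0.47). Muscle minus liver was -0.21 ± 0.55 (adjusted p = 0.74), and -1.73 (adjusted p = 0.000297) without control 2. Of the settings tried, muscle minus liver thus passed for both cluster members only where control 2 was left out.

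The ratio between the cluster partners changed less between tissues than their levels did. Each bta-miR-183 read was matched by 7.14 ± 0.71 bta-miR-182 reads in tongue (SD, n = 16), 6.90 ± 0.54 in kidney (n = 8), 8.28 ± 0.84 in liver (n = 13) and 6.29 ± 1.55 in muscle (n = 8). The Spearman correlation between the 2 miRNAs was 0.91 over 16 tongue libraries, 0.88 over 13 liver libraries, 0.88 over 8 kidney libraries and 0.86 over 8 muscle libraries. These are descriptions of libraries that share their depth and tissue makeup.

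**Figure D2:**
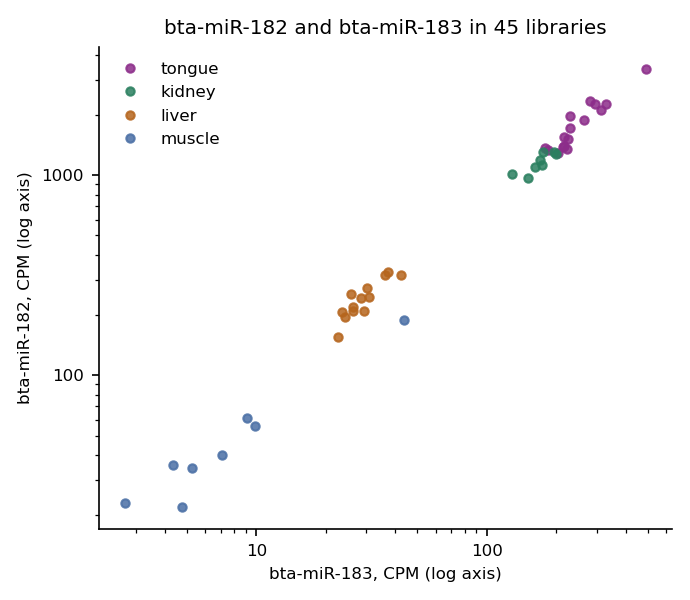
CPM of bta-miR-183 (horizontal, log axis) against CPM of bta-miR-182 (vertical, log axis), 1 point per library, coloured by tissue. The libraries lie along 1 line, with muscle lowest, and muscle control 2 (43.6 CPM of bta-miR-183 and 188 CPM of bta-miR-182) lies beside the liver libraries.

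miR-96, the remaining miRNA of the cluster, was listed in tongue alone, at 22.1 ± 9.05 CPM (SD, n = 16). One miR-96 read stood beside 12.0 ± 1.80 bta-miR-183 reads and 85.8 ± 15.1 bta-miR-182 reads. Over the 16 tongue libraries its Spearman correlation was 0.84 with bta-miR-182 and 0.83 with bta-miR-183, and these were the 2 closest of all tongue entries, with miR-141 next at 0.82. For bta-miR-183 the closest entries were bta-miR-182, miR-200c (0.87) and miR-429 (0.85), and for bta-miR-182 they were bta-miR-183, miR-2285k (0.86) and miR-96. miR-141, miR-200c and miR-429 are miRNAs of the miR-200 family, which marks epithelium. The summed level of the epithelial list (8 entries of the miR-200 family, miR-141 and miR-205) correlated with bta-miR-183 at 0.86, with bta-miR-182 at 0.80 and with miR-96 at 0.70 over the same libraries. In the other tissues its Spearman correlation with bta-miR-182 and bta-miR-183 was 0.59 and 0.51 in liver (13 libraries), 0.71 and 0.57 in muscle (8 libraries, 2 entries listed), and -0.69 and -0.50 in kidney (8 libraries), where the sign was the opposite. The part of epithelial content in these levels was not tested.

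Across the means of the 9 tissue-by-group cells the closest entries to bta-miR-182 were bta-miR-183 (Spearman 0.97), miR-141 (0.93) and miR-125a (0.88), and those to bta-miR-183 were bta-miR-182, miR-141 (0.95) and miR-450a (0.88). Between tissues miR-141 was among the 3 closest entries of both. It was the only entry of the epithelial list among the shared miRNAs, so no other could appear. The 9 cells come from 4 tissues, so any entry with a like tissue order scores high. The sums of the epithelial list ran in the order tongue, kidney, liver, muscle, but they are not sums of the same entries. The summed list had a median of 4502 CPM in LOS tongue and 4550 CPM in control tongue, 1811 and 1626 CPM in kidney, 843 and 707 CPM in liver, and 28.9 and 27.6 CPM in muscle, where 2 entries, miR-141 and miR-205, were listed. Tongue and kidney listed 8 entries and liver 7, without miR-205. In tongue miR-205 was a large part of the sum, with a median of 2765 CPM over the 15 libraries other than control 1. miR-141 alone kept the order in controls 1 to 4. Its log2 differences were 1.17 for tongue minus kidney, 2.86 for kidney minus liver and -2.84 for muscle minus liver.

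bta-miR-9 had another order. It averaged 199 ± 33.5 CPM in kidney (SD, n = 8), 81.5 ± 36.1 CPM in tongue (n = 16), 58.7 ± 44.2 CPM in muscle (n = 8) and 14.1 ± 2.49 CPM in liver (n = 13). In controls 1 to 4, kidney exceeded liver by 4.52 ± 0.43 (edgeR adjusted p = 3.75e-08), a fitted fold of 22.96, and muscle by 1.62 ± 0.37 (adjusted p = 0.000792). Tongue lay 2.18 ± 0.37 below kidney (log2 difference -2.18, adjusted p = 4.43e-05) and above liver by 2.34 ± 0.41 (adjusted p = 5.04e-05), and muscle lay above liver by 2.90 ± 0.42 (adjusted p = 5.62e-06). Without control 2 kidney minus muscle was 2.45 and muscle minus liver 2.09. Tongue and muscle did not differ beyond their spread, with -0.55 ± 0.36 (adjusted p = 0.19), and without control 2 the value was 0.20 (adjusted p = 0.47). Over the 9 cells the entries closest to bta-miR-9 were miR-1247-5p and miR-503-5p (both 0.97), followed by let-7d-3p (0.95), which tied with another entry.

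bta-miR-138 was highest in liver, at 99.7 ± 11.1 CPM (SD, n = 13). It stood at 42.4 ± 17.4 CPM in tongue (n = 16), 20.6 ± 12.1 CPM in muscle (n = 8) and 6.93 ± 1.37 CPM in kidney (n = 8), so kidney had the most bta-miR-9 and the least bta-miR-138 of the 4 tissues. Kidney lay below liver with a log2 difference of -3.00 ± 0.40 (edgeR adjusted p = 2.21e-06) and below muscle with -1.70 ± 0.40 (adjusted p = 0.00112), and tongue exceeded kidney by 2.38 ± 0.39 (adjusted p = 3.15e-05). Muscle lay below liver with -1.30 ± 0.36 (adjusted p = 0.00324). Without control 2 kidney minus muscle was -1.14 and muscle minus liver -1.94. Neither tongue minus liver (-0.62 ± 0.35, adjusted p = 0.10) nor tongue minus muscle (0.68 ± 0.36, adjusted p = 0.11) passed the test. Both passed with plain totals as the scale (-0.998, adjusted p = 0.0150, and 1.05, adjusted p = 0.016), tongue minus liver passed without control 1 (-0.98, adjusted p = 0.040), and tongue minus muscle passed without control 2 (1.33, adjusted p = 0.00353) and without the 3 most abundant miRNAs (0.87, adjusted p = 0.040). Over the 9 cells 6 entries were equally close to bta-miR-138, all at 0.98, among them miR-101, miR-134-3p and miR-136.

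bta-miR-128 was highest in muscle, and it was the most abundant member in liver as well as in muscle. It averaged 1447 ± 212 CPM in muscle (SD, n = 8), where it ranked 64 of 439 miRNAs, 639 ± 61.8 CPM in liver (n = 13), 373 ± 74.7 CPM in tongue (n = 16) and 121 ± 7.82 CPM in kidney (n = 8). Each neighbouring pair in this order differed in controls 1 to 4. Muscle exceeded liver by 2.10 ± 0.18 (edgeR adjusted p = 1.17e-08), tongue lay below liver with -0.49 ± 0.18 (adjusted p = 0.0175), and tongue exceeded kidney by 1.05 ± 0.18 (adjusted p = 4.75e-05). The middle step was the weakest, at -0.43 (adjusted p = 0.10) without control 1 and -0.20 (adjusted p = 0.30) without the 3 most abundant miRNAs. Tongue lay below muscle with -2.58 ± 0.19 (adjusted p = 7.26e-09) and kidney with -3.63 ± 0.20 (adjusted p = 4.00e-11), and kidney lay below liver with -1.53 ± 0.18 (adjusted p = 5.61e-07). Its closest entries over the 9 cells were miR-433 (1.00), miR-299-3p and miR-temp6-3p (both 0.97), and within tongue miR-381 (0.80), miR-543 (0.79) and miR-95 (0.79).

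The 5p arm of miR-128-1, the strand released together with miR-128 from 1 of its precursors, did not follow it. miR-128-1-5p averaged 8.57 ± 1.69 CPM in liver (SD, n = 13), 6.45 ± 1.02 CPM in kidney (n = 8) and 5.46 ± 0.72 CPM in muscle (n = 8), and was not listed in tongue. There were 269 ± 52.4 bta-miR-128 reads per miR-128-1-5p read in muscle, 78.4 ± 23.6 in liver and 19.2 ± 3.40 in kidney. The count tables do not separate the precursors that give the same mature bta-miR-128, so the share of each precursor is not known here. miR-128-1-5p had 22 to 39 reads per muscle library and 24 to 46 per liver library, which limits the precision of these ratios.

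The remaining members were low. miR-124a and miR-124b were listed in tongue alone, at 7.13 ± 4.29 and 7.12 ± 4.29 CPM (SD, n = 16), with equal counts in all but 1 of the 16 libraries. The 2 entries may thus share reads and are uncertain as separate miRNAs. miR-219 was listed in liver alone, at 10.03 ± 1.53 CPM (n = 13). miR-7 stood at 32.8 ± 2.67 CPM in liver and 5.25 ± 2.32 CPM in tongue, while miR-7-2-3p, from the other arm of a miR-7 precursor, stood at 11.2 ± 1.83 CPM in liver and 9.61 ± 1.24 CPM in tongue. There were thus 2.99 ± 0.46 miR-7 reads per miR-7-2-3p read in liver, and 0.54 ± 0.20 in tongue. miR-7 and miR-7-2-3p were not listed in kidney or muscle and so were outside the tissue tests. Liver and tongue tables were also made separately, and the shift of this ratio is given without a test.

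Within tongue the members did not all vary alike. miR-124a correlated with miR-138 at a Spearman value of 0.80, with miR-132, another neuronal miRNA, at 0.69 and with miR-9 at 0.62, but at 0.09 with miR-182 and -0.06 with miR-183. The library of LOS 2, with the highest miR-124a level (19.1 CPM), also had the highest bta-miR-9 level (159 CPM), whereas its bta-miR-182 was 1378 CPM, below the tongue median of 1643 CPM. Over the 16 tongue libraries miR-9 had miR-340-5p as its closest entry (0.66), miR-138 had miR-106a after the miR-124 entries (0.69), miR-7 had miR-temp54-5p (0.79), miR-320a (0.77) and miR-194 (0.76), and miR-7-2-3p had miR-155 (0.63), miR-19b (0.57) and miR-652-5p (0.54). The summed list of other neural miRNAs correlated with miR-124a and miR-124b at 0.63, miR-138 at 0.46, miR-9 at 0.44 and miR-96 at 0.34. It stood at 0.22 with miR-182, 0.15 with miR-7-2-3p, 0.14 with miR-183, 0.06 with miR-7 and -0.20 with miR-128. miR-7 was closer to the cluster, at 0.59 with miR-182 and 0.57 with miR-183. The patterns thus did not follow a division into neural and sensory miRNAs. These values are descriptions over 16 libraries of 2 groups and both sexes.

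LOS and control fetuses were then compared within each tissue, the question of the study. No member passed the test in any of the 4 tissues, and the CPM ranges of LOS and control overlapped for every member entry. The share of all listed miRNAs that overlapped was not counted for these comparisons, so the overlap alone says little about the members. In tongue, fitted with a term for sex, 0% of 460 miRNAs were called, 25 had an unadjusted p under 0.05, and DESeq2 called 0. In kidney 0% of 436 were called (33 with an unadjusted p under 0.05, DESeq2 3), and in muscle 0% of 439 (58 with an unadjusted p under 0.05, DESeq2 17). In liver 1.24% of 563 miRNAs were called and 0 of 9 members. DESeq2 also called 0 members in each tissue. At an unadjusted p under 0.05, 1 member passed over the 4 tissues, bta-miR-9 in tongue.

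**Figure D3:**
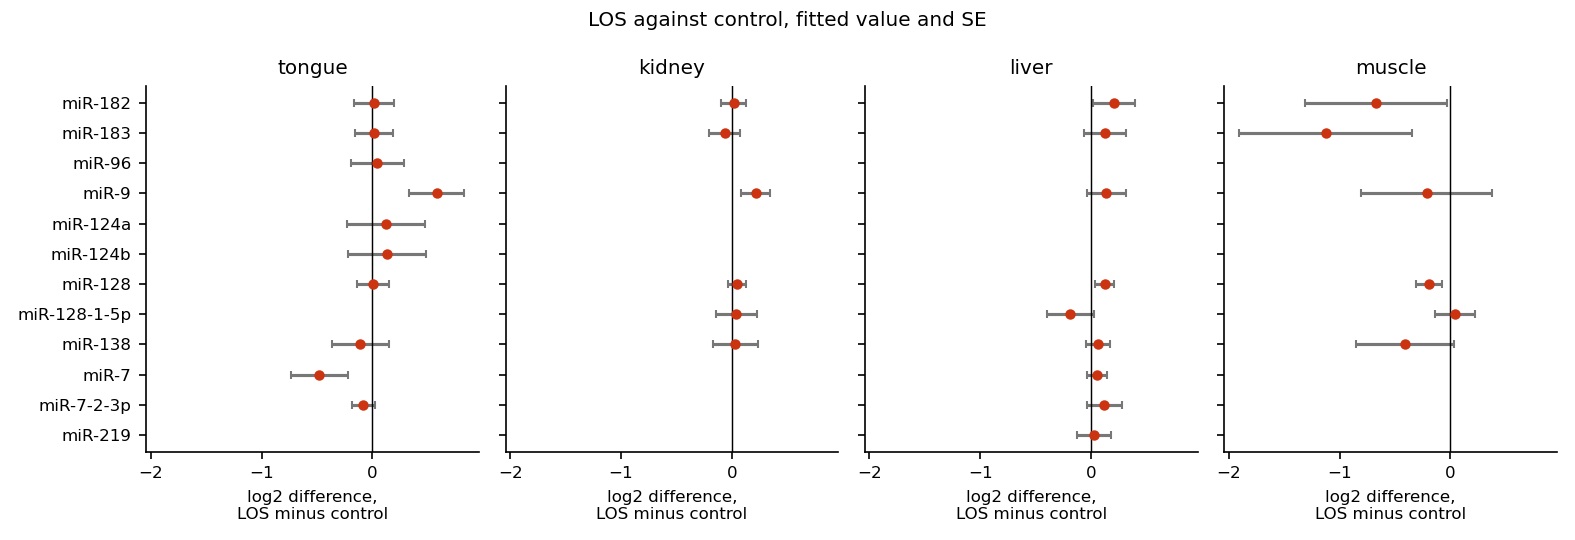
Fitted log2 difference, LOS minus control, of each member in each tissue, with bars of 1 SE; a gap means that the member was not listed. The values lie near 0 in kidney and liver, the bars are widest for bta-miR-182, bta-miR-183 and bta-miR-9 in muscle, and bta-miR-9 in tongue is the highest value at 0.58.

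In tongue bta-miR-9 ran from 49.3 to 159 CPM with a median of 106 CPM in LOS, against 44.8 to 139 CPM with a median of 60.8 CPM in control. Its difference was 0.58 ± 0.25, a fitted fold of 1.49 (unadjusted p = 0.031, edgeR adjusted p = 0.84). LOS 1 lay among the lower controls and control 6 among the higher LOS libraries. miR-7 was next in size, with 2.92 to 6.17 CPM and a median of 4.05 CPM in LOS, against 1.86 to 12.3 CPM and a median of 5.48 CPM in control, and a difference of -0.48 ± 0.26 (adjusted p = 0.92). The sensory cluster was level in tongue. bta-miR-182 ran from 1354 to 2335 CPM with a median of 1896 CPM in LOS, against 1292 to 3395 CPM with a median of 1517 CPM in control, and the fitted difference was 0.02 ± 0.18. bta-miR-183 had a difference of 0.02 ± 0.17 and miR-96 of 0.05 ± 0.24, and each of these 3 changed sign without some single libraries. bta-miR-128 (0.00 ± 0.14), miR-138 (-0.11 ± 0.26), miR-7-2-3p (-0.08 ± 0.10), miR-124a (0.13 ± 0.35) and miR-124b (0.13 ± 0.35) were within 1 SE of 0.

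In kidney bta-miR-9 again had the largest member difference. It was 217, 211, 173 and 252 CPM in LOS, against 231, 159, 174 and 173 CPM in control, and the difference was 0.22 ± 0.13 (edgeR adjusted p = 0.75). Control 1 lay above 3 of the LOS libraries, so the groups overlapped. bta-miR-182 was 1272, 1096, 1299 and 1014 CPM in LOS, against 1127, 968, 1311 and 1195 CPM in control, with a difference of 0.02 ± 0.11. The other kidney members lay between -0.06 (bta-miR-183) and 0.05 (bta-miR-128), with adjusted p of 0.957 or higher.

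In muscle the members' differences depended on control 2. bta-miR-182 was 34.4, 23.1, 56.1 and 61.4 CPM in LOS, against 21.9, 188, 35.8 and 40.0 CPM in control. bta-miR-183 was 5.27, 2.69, 9.91 and 9.10 CPM in LOS, against 4.76, 43.6, 4.36 and 7.11 CPM in control. In both, control 2 was the highest of the 8 libraries, and the other 3 controls lay within or near the LOS range. The differences were -0.67 ± 0.64 for bta-miR-182 and -1.13 ± 0.78 for bta-miR-183 (edgeR adjusted p = 0.64 and 0.51), and without control 2 they were 0.49 and 0.36. bta-miR-9 was 46.6, 115, 26.6 and 28.8 CPM in LOS, against 36.4, 142, 28.4 and 46.6 CPM in control, so that 1 library of each group was high. bta-miR-138 was 16.6, 12.8, 21.9 and 18.7 CPM in LOS, against 20.8, 48.9, 14.7 and 10.3 CPM in control. bta-miR-128, by contrast, was 1678, 1375, 1044 and 1257 CPM in LOS, against 1581, 1482, 1625 and 1533 CPM in control, with control 2 lowest of the controls and a difference of -0.19 ± 0.12 (adjusted p = 0.48).

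**Figure D4:**
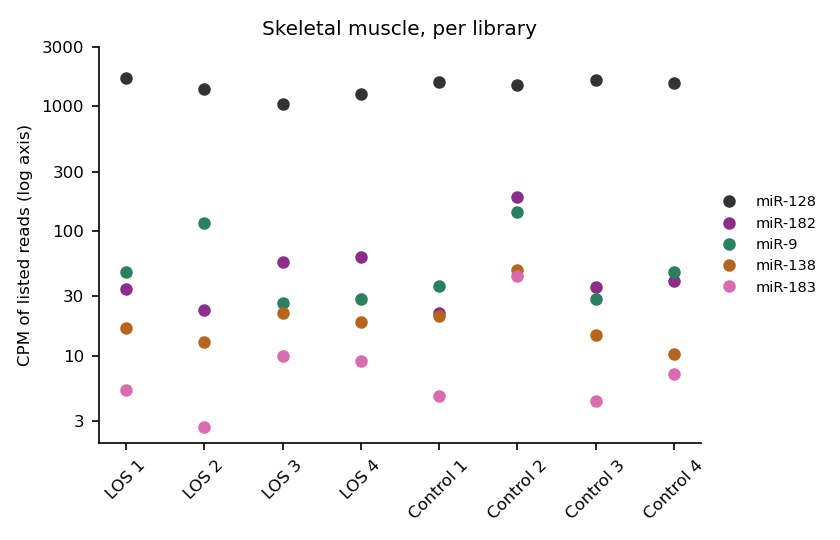
CPM of listed reads (log axis) of the 5 members in each of the 8 skeletal muscle libraries, LOS 1 to 4 left of control 1 to 4. Control 2 is high for bta-miR-182 (188 CPM), bta-miR-183 (43.6 CPM), bta-miR-9 (142 CPM) and bta-miR-138 (48.9 CPM) but not for bta-miR-128, and LOS 2 is high for bta-miR-9 alone (115 CPM).

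Muscle control 2 had muscle markers like the other libraries. Its miR-133a was 14741 CPM, where the other 7 libraries had a median of 14610 CPM, and its miR-206 was 768 CPM, where they had 769 CPM. Markers of other tissues were in part high. miR-215 was 62.0 CPM, against 10.8 to 33.7 CPM in the other libraries, and miR-194 was 54.5 CPM, against 25.1 to 38.0 CPM. miR-192 was 1341 CPM, just above their 977 to 1330 CPM. miR-205 was 47.7 CPM, within the other libraries' 8.07 to 69.5 CPM, and miR-141 was 7.33 CPM, within their 2.04 to 12.7 CPM. miR-200a, miR-200b, miR-200c and miR-429 were not listed in muscle. The red cell miRNA miR-451 was 144.5 CPM, against 69.7 to 138.8 CPM. The white blood cell miRNA miR-146a was 15.8 CPM, against 7.90 to 12.97 CPM. The other blood cell entries were within the other libraries' ranges. Among other neural miRNAs, miR-212-3p was 8.46 CPM, against 4.30 to 6.95 CPM, and miR-218 was 79.3 CPM, against 35.6 to 78.8 CPM. By contrast, miR-135a was lowest there, at 4.89 CPM, against 4.90 to 6.97 CPM. The remaining neural entries were within the other libraries' ranges. The sum of that list was 547 CPM, within the 443 to 671 CPM of the other muscle libraries. The part of cells of another type in this library was not tested.

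In liver LOS was compared with control and with ART, and ART with control, in 1 fit of 13 libraries, so these comparisons share samples. ART over control called 0% of 563 miRNAs (46 with an unadjusted p under 0.05, DESeq2 6), and LOS over ART called 2.66%. None of the 9 members passed in either, by edgeR or by DESeq2. bta-miR-182 was 273, 256, 246 and 328 CPM in LOS, 156, 209, 318 and 207 CPM in ART, and 208, 196, 219, 315 and 245 CPM in control. The highest of the 13 libraries was of LOS, and 1 ART and 1 control library lay above the other 3 LOS libraries. Its differences were 0.21 ± 0.19 for LOS minus control (edgeR adjusted p = 0.67), 0.28 ± 0.20 for LOS minus ART (adjusted p = 0.54) and -0.07 ± 0.19 for ART minus control (adjusted p = 0.96).

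bta-miR-183 in liver was 30.1, 25.7, 31.0 and 37.3 CPM in LOS, 22.7, 29.3, 42.5 and 23.6 CPM in ART, and 26.3, 24.3, 26.4, 36.1 and 28.5 CPM in control, with differences of 0.12 ± 0.19 for LOS minus control and 0.08 ± 0.19 for ART minus control. ART 3, the ART library with the highest bta-miR-182, was also the highest of all for bta-miR-183. bta-miR-128 was 678 ± 32.5 CPM in LOS, 625 ± 68.9 CPM in ART (SD, n = 4 each) and 618 ± 69.5 CPM in control (n = 5), and its LOS minus control difference was 0.12 ± 0.09 (adjusted p = 0.55). miR-7-2-3p had the second-largest LOS minus ART difference of the members, 0.25 ± 0.16 (adjusted p = 0.49). The other liver members lay between -0.19 (miR-128-1-5p) and 0.14 (bta-miR-9) for LOS minus control.

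The LOS difference was compared between tissues in LOS 1 to 4 and control 1 to 4 through the interaction of tissue and LOS (edgeR F test). In tongue all of these fetuses are female, and in the other tissues the sex is not given. Of 374 shared miRNAs 1.07% were called, and none of the 5 members. The largest member F was 1.41 for bta-miR-183 (edgeR adjusted p = 0.77), and the others ran from 0.86 to 1.10.

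Tongue alone allowed a comparison by sex. Of 460 miRNAs 0% were called between male and female fetuses (62 with an unadjusted p under 0.05, DESeq2 0), and 0% for the sex by LOS term (20 with an unadjusted p under 0.05, DESeq2 0), and no member passed either test. bta-miR-183 and miR-96 had the members' lowest unadjusted p for the sex by LOS term. bta-miR-183 in males was 263, 311 and 294 CPM in LOS, against 228, 230, 226 and 179 CPM in control. In females it was 223, 215, 215 and 279 CPM in LOS, against 490, 216, 329, 204 and 184 CPM in control. The male groups did not overlap and the female groups did. Among all 460 miRNAs, 4.35% had male LOS and male control libraries that did not overlap, and bta-miR-183 was the 1 of 10 members that did so.

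The difference between the sexes in the LOS effect was 0.65 ± 0.31 for bta-miR-183 (unadjusted p = 0.051, edgeR adjusted p = 0.98), 0.82 ± 0.45 for miR-96 (adjusted p = 0.98) and 0.52 ± 0.35 for bta-miR-182 (adjusted p = 0.98). Without control 1, a female, these were 0.41, 0.51 and 0.26. It is thus not shown that the sexes differed. Summed epithelial miRNAs had a median of 5702 CPM (4502 to 7150) in male LOS, against 4564 CPM (4357 to 5196) in male control. In females the medians were near each other, 4228 CPM (3724 to 7263) in LOS, against 4168 CPM (3363 to 6084) in control. Their part in the sex by LOS values was not tested.

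**Figure D5:**
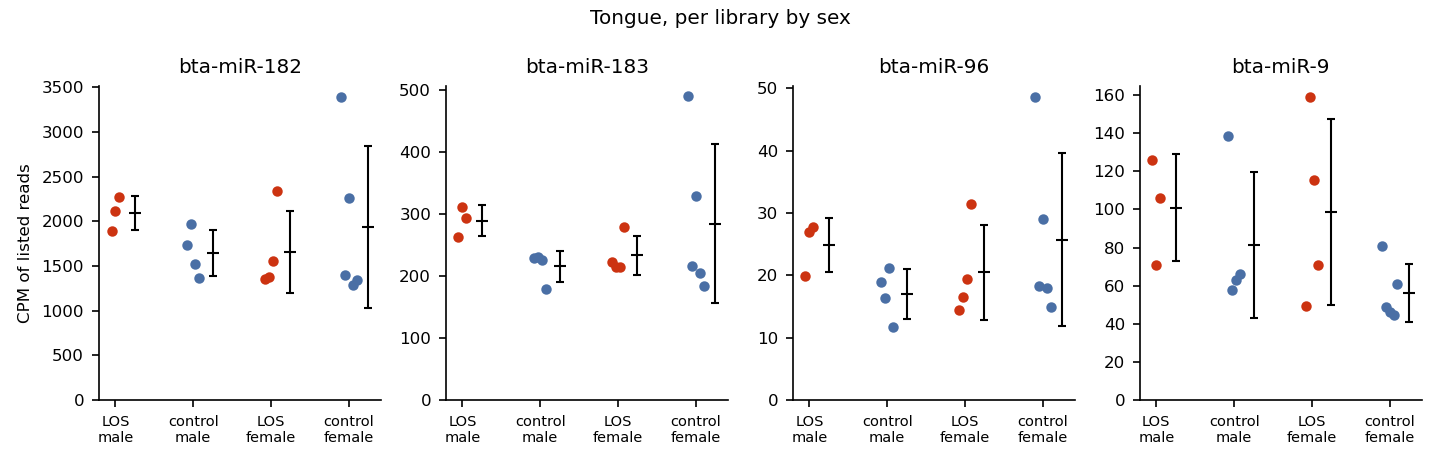
CPM of listed reads in tongue of bta-miR-182, bta-miR-183, miR-96 and bta-miR-9, 1 point per library by sex, LOS left of control, with the mean and SD beside the points. Control 1, a female, is the highest library for the cluster at 3395, 490 and 48.6 CPM, and the LOS and control groups overlap in both sexes except for bta-miR-183 in males.

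Other miRNAs known from neurons (13 names, of which 9 were listed in tongue, 7 in liver, 8 in kidney and 8 in muscle) also held no call between LOS and control. Of 10 entries in tongue, 10 in kidney, 10 in liver and 9 in muscle, 0 passed in either direction, and their median log2 differences were 0.05 in tongue, 0.14 in kidney, 0.15 in liver and 0.05 in muscle, beside 0.01, 0.01, 0.01 and -0.01 over all miRNAs. The 2 arms of miR-708 had the lowest p of the list in 3 tissues. miR-708 differed by 0.25 ± 0.12 in tongue (edgeR adjusted p = 0.84), 0.27 ± 0.10 in kidney (adjusted p = 0.46) and 0.48 ± 0.20 in muscle (adjusted p = 0.35), and miR-708-3p by 0.17 ± 0.12 (adjusted p = 0.92), 0.36 ± 0.10 (adjusted p = 0.35) and 0.51 ± 0.20 (adjusted p = 0.32). In liver miR-132 and miR-129-5p had the lowest p, with 0.60 ± 0.19 (adjusted p = 0.15) and 0.38 ± 0.29 (adjusted p = 0.57). For ART minus control in liver 0 of 10 passed, with a median of -0.05 beside 0.00, and for LOS minus ART 0 of 10, with a median of 0.20 beside 0.00.

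Between tissues the 7 shared entries of this list (miR-132, miR-135a, miR-204, miR-218, miR-504, miR-708 and miR-708-3p) were higher in kidney than in liver in 7 of 7 cases, as bta-miR-9 was. miR-504 had the largest difference of these, 3.82 ± 0.12 (edgeR adjusted p = 4.12e-14). Over all 374 shared miRNAs 144 were called higher in kidney than in liver and 179 lower. Tongue over liver had 5 called higher and 2 lower, and tongue over kidney 0 higher and 4 lower, with miR-204 lowest at -2.50 ± 0.18 (adjusted p = 1.72e-09). Tongue over muscle had 4 higher and 2 lower, kidney over muscle 5 higher and 1 lower, and muscle over liver 3 higher and 1 lower. Over all shared miRNAs, tongue over liver had 146 called higher and 172 lower, and tongue over kidney 165 and 133. Tongue over muscle had 128 and 115, kidney over muscle 134 and 153, and muscle over liver 150 and 170. Most shared miRNAs were thus called in every pair, so these counts alone say little about the list.

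miR-27a-3p and miR-27b, whose seed overlaps that of miR-128, and miR-1271, whose seed is that of miR-96, also gave 0 calls between LOS and control in the 4 tissues. The list took either arm. It therefore also held miR-27b-5p in each tissue and miR-27a-5p in tongue, other arms that lack this seed, and these were not called. The medians of the whole list were -0.05 in tongue (5 entries), -0.11 in kidney, 0.01 in liver and -0.32 in muscle (4 entries each). miR-27b in muscle had the lowest p, with -0.30 ± 0.08 (edgeR adjusted p = 0.23), beside -0.19 ± 0.12 for bta-miR-128. Between tissues miR-27a-3p was higher in tongue than in liver by 2.30 ± 0.09 (adjusted p = 3.94e-13), where bta-miR-128 was lower.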

How the data were processed

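Small RNA libraries of tongue, kidney, liver and skeletal muscle were deposited by the authors as whole-number read counts per mature miRNA, not normalized, 1 table per tissue. Per the submitters' processing notes, Bowtie and build UMD3.1 were used, with cutadapt 1.18 for tongue. The counter, the miRNA annotation and any abundance filter are details not given in the sources used here, so totals are of listed reads. CPM are counts relative to these totals. edgeR 4.0.16 (R 4.3.3) gave TMM factors of 0.943 to 1.07 within a tissue and 0.751 to 1.46 over tissues, and its quasi-likelihood tests were adjusted (Benjamini-Hochberg) over all miRNAs of a table, called under 0.05. filterByExpr removed 0 entries. The 3 liver groups shared 1 fit, tongue had a sex term, and tissue fits used the 374 shared miRNAs. The steps were tested on simulated data. DESeq2 1.42.0, other scalings and filters, left-out libraries and a replicate block were alternatives.

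The members, lists and tests were chosen with earlier results of these data known. Every member entry was named, with the 3 miRNAs of highest Spearman correlation (log2 CPM) and, from the lists, called entries or the 2 of lowest p. Equal numbers in different tissues or groups are a label only, since the labels do not say that they mark 1 fetus. No 2 libraries of a group were duplicates, the closest having a chi-square of 23.9 relative to its degrees of freedom.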

Additional observations from a re-analysis of the deposited data

Results flagged for a closer look

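12 member values lay apart from the rest of their group by Dixon's criterion, over 71 groups of 4 to 9 libraries, where chance flags about 1 in 20. Entries that share reads or a cluster are not independent.

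Tongue control 1 was the highest of the 9 controls for the whole miR-183 cluster, with 3395 CPM of bta-miR-182, 490 CPM of bta-miR-183 and 48.6 CPM of miR-96, where the other 8 reached 2254, 329 and 29.0 CPM. It was also the highest for miR-7 (12.3 CPM, the others 1.86 to 6.80 CPM) and for miR-124a and miR-124b (14.7 CPM each, the others 3.67 to 8.75 CPM). The same library had the highest miR-141 of the tongue libraries, 1306 CPM beside 499 to 1076 CPM, and the highest miR-1271, 198 CPM beside 93.6 to 155 CPM. Also highest there were miR-200b (257 CPM beside 90.5 to 230 CPM), miR-200c (216 CPM beside 91.3 to 199 CPM) and miR-429 (466 CPM beside 209 to 438 CPM). So was miR-200a-5p (27.0 CPM beside 11.8 to 24.8 CPM). Of the other neural list, miR-218 (234 CPM beside 104 to 221 CPM) and miR-135a (17.9 CPM beside 7.05 to 17.1 CPM) were highest there. The remaining entries of that list were within the other libraries' ranges. So were its miR-205 (3179 CPM beside 2085 to 5066 CPM), miR-200a (617 CPM beside 293 to 621 CPM) and miR-200b-5p (14.8 CPM beside 5.34 to 15.8 CPM).

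Tongue control 4 was the lowest control for bta-miR-128, at 178 CPM beside 329 to 479 CPM. Tongue control 6 was the highest control for bta-miR-9, at 139 CPM beside 44.8 to 81.0 CPM. Liver LOS 2 was the highest LOS library for miR-219, at 14.2 CPM beside 8.71 to 9.04 CPM. Muscle control 2 was the highest control for bta-miR-182 (188 CPM, 5.77 times the mean of the other 3), bta-miR-183 (43.6 CPM, 8.06 times) and bta-miR-9 (142 CPM, 3.81 times).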

How the results depend on the processing

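No member was called between LOS, ART and control, or for sex by LOS or tissue by LOS, under any alternative run, and the lowest adjusted p of a member within a tissue was 0.15 (bta-miR-182, LOS minus ART). Counts over all miRNAs moved more. DESeq2 called 6 for ART minus control, 27 for LOS minus ART, 3 in kidney, 20 in liver and 17 in muscle. With only the 2 groups compared, ART minus control had 1 and LOS minus ART 6. With the replicate block, ART minus control had 1, LOS minus ART 3 and LOS minus control in liver 0. In muscle 3 were called with RLE scaling, with a filter at a mean of 10 CPM, and without the 3 most abundant miRNAs. Leaving out 1 library gave 0 to 5 for ART minus control (1 without ART 4, 5 without control 5) and 5 to 20 for LOS minus ART (8 without ART 1, 7 without ART 2, 5 without LOS 1, 9 without LOS 3). It gave 0 to 2 in kidney (2 without LOS 2), 6 to 12 for LOS minus control in liver (12 without LOS 2), 0 to 1 in muscle (1 without LOS 3) and 0 to 1 for sex by LOS (1 without LOS 2). In the fits over tissues a left-out number lost its library in all 4 tissues. Tissue by LOS then had 1 to 6 (2 without control 2, 1 without control 4, 2 without LOS 3). Members called for muscle minus liver were then 3 to 5 (5 without control 2). The cause was not tested.

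Sign changes, all of member values that were not called, were these. The replicate block gave -0.0492 for miR-124a and miR-124b, -0.0985 for bta-miR-182, -0.0959 for bta-miR-183 and -0.0664 for miR-96 in tongue, and in liver -0.00148 (ART minus control) and -0.0248 (LOS minus control) for miR-219 and -0.0325 for bta-miR-9 (ART minus control). Female fetuses alone gave -0.20 for bta-miR-182, -0.26 for bta-miR-183 and -0.30 for miR-96 in tongue. bta-miR-128 in tongue was -0.000542 without the 3 most abundant miRNAs and -0.00271 without the sex term, and bta-miR-182 in kidney was -0.00589 with the filter at a mean of 10 CPM. bta-miR-9 for ART minus control was -0.000517 with DESeq2, -0.00171 with RLE scaling, -9.67e-05 with that filter and -0.00278 without the 3 most abundant miRNAs.

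Leaving out 1 library gave these ranges where a sign changed. In tongue they were -0.25 to 0.35 for miR-124a, -0.25 to 0.35 for miR-124b, -0.0787 to 0.0458 for bta-miR-128, -0.32 to 0.068 for miR-138, -0.059 to 0.18 for bta-miR-182, -0.0381 to 0.17 for bta-miR-183 and -0.0449 to 0.24 for miR-96, and for sex by LOS -0.10 to 0.15 for bta-miR-128, -0.10 to 0.68 for miR-138 and -0.15 to 0.0406 for miR-7-2-3p. In kidney they were -0.00488 to 0.0681 for bta-miR-128, -0.0601 to 0.18 for miR-128-1-5p, -0.15 to 0.13 for miR-138, -0.0618 to 0.098 for bta-miR-182 and -0.16 to 0.0411 for bta-miR-183. In muscle they were -0.0471 to 0.11 for miR-128-1-5p, -0.64 to 0.24 for miR-138, -0.97 to 0.49 for bta-miR-182, -1.44 to 0.36 for bta-miR-183 and -0.86 to 0.57 for bta-miR-9. For LOS minus control in liver they were -0.32 to 0.00402 for miR-128-1-5p, -0.0397 to 0.13 for miR-138 and -0.15 to 0.0816 for miR-219. For LOS minus ART they were -0.21 to 0.11 for miR-128-1-5p, -0.0721 to 0.28 for bta-miR-183 and -0.19 to 0.0461 for miR-219. For ART minus control they were -0.0477 to 0.0825 for bta-miR-128, -0.31 to 0.0579 for bta-miR-182, -0.16 to 0.18 for bta-miR-183, -0.0337 to 0.0956 for miR-219 and -0.15 to 0.0957 for bta-miR-9. Between tissues, where a control number was left out in all 4 tissues, they were -1.73 to 0.16 for bta-miR-183 (muscle minus liver) and -0.95 to 0.20 for bta-miR-9 (tongue minus muscle).

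The other tissue differences kept their sign under each alternative run, the choice of plain totals being added after seeing the data. The replicate block changed no member call, and the calls between tissues stayed within 2 of their number. Whether equal numbers pair the libraries was not tested, and the labels do not say. Of 49 same-number pairs between tissues, 33 had deviations correlated over 0.1 (median 0.16, lowest -0.37). Within a tissue, 6 of 27 same-number pairs between groups were over 0.1 (median -0.0045). In 56 of 98 comparisons between tissues a library correlated best with its own number, and the share to be had without pairing was not computed. Depth limits miR-7, miR-124a, miR-183 in muscle and miR-128-1-5p, whose lowest library counts ran from 17 to 32 reads.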

Other observations

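miR-96 was not listed in kidney, where its cluster partners were abundant. bta-miR-183 had a median of 172 CPM in kidney, and divided by the 11.7 bta-miR-183 reads per miR-96 read of tongue this gives 14.7 CPM, a level above 113 of the 436 kidney entries. The same division gives 2.45 CPM in liver and 0.53 CPM in muscle, below every listed mean of those tables (the lowest were 3.03 and 3.53 CPM). The reason for its place outside the kidney table was not tested.

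Among LOS libraries bta-miR-9 was highest in number 2 in 3 tissues. Whether these libraries are of 1 fetus is not given in the labels. The number 2 library had the highest LOS value in tongue (159 CPM), muscle (115 CPM) and liver (18.7 CPM), and the second-lowest LOS value in kidney (211 CPM). The tongue library also had the highest miR-124a of the 16 (19.1 CPM).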
